A study of Sus scrofa with 2 samples.

Results

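KRT7-high cells are the cultured pig adipose stromal cells with the largest share of their RNA molecules from KRT7, a gene named for a keratin of simple epithelia. They were taken, in each of 2 single-cell libraries, as the top 5% of cells by KRT7 molecules over all molecules, among cells with at least 5000 unique molecular identifiers (UMIs, tags that count each captured RNA molecule once). This gave 479 KRT7-high cells in library 1 and 580 in library 2, 1059 of 21179 cells at that depth and of 25207 barcodes in all. They were set against KRT7-zero cells, those with no KRT7 molecule, of which there were 2921 in library 1 and 3831 in library 2. The 6181 and 7187 cells between them are called KRT7-intermediate. KRT7 itself chose the cells, so its levels are given as a description without a test.

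Both libraries hold adipose-derived stem cells (ADSCs) of healthy Bama miniature pigs, and no treatment, allele or control group is named. The cells were taken from chest fat and expanded in culture over 3 generations within 14 days, so every value describes cultured cells. The labels number the libraries 1 and 2 and do not say whether they came from separate animals. The p-values rest on how far the differences between classes varied between these libraries, with a spread pooled over genes. That variation may be only technical. No age or sex of the pigs is stated.

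Keratins are intermediate filament proteins that assemble as pairs of a type I and a type II chain. KRT7 and KRT8 are type II and KRT18 and KRT19 type I keratins of simple epithelia such as gland ducts and mesothelium, while mesenchymal cells such as fibroblasts and ADSCs build their filaments mainly of vimentin. ADSCs are defined in culture by surface proteins such as THY1, ENG and CD44, and they secrete fibrillar collagens, the cable-forming proteins of connective tissue.

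The libraries held 12251 and 12956 barcodes with 211527905 and 246316928 UMIs, and the cells with at least 5000 UMIs had medians of 21132 and 20150 UMIs. The summed KRT7-high cells held 8955782 and 10275796 UMIs, against 50053318 and 63866629 in the KRT7-zero cells. Median depth was 17140 and 14583.5 UMIs in KRT7-high cells, 23216 and 22988 in KRT7-intermediate cells and 15636 and 14389 in KRT7-zero cells. The libraries shared 46 barcodes, of which 32 had at least 5000 UMIs in both libraries and 1 was KRT7-high in both. No doublet was removed, because the doublet caller marked 0 cells in both libraries.

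KRT7 was a low-count gene even in the cells chosen for it. A KRT7-high cell had a median of 5 KRT7 UMIs in library 1 and 4 in library 2, with a lowest count of 2 in both and highest counts of 22 and 17. In counts per 1000000 UMIs (CPM), the cells ran between 225 and 721 in library 1, with a median of 277, and between 217 and 895 in library 2, with a median of 268. The last cell inside the library 1 class held 3 KRT7 UMIs of 13309, or 225.411 CPM, and the first outside held 6 of 26626, or 225.344 CPM. In library 2 the last cell inside held 7 of 32310, or 216.651 CPM, and the first outside 3 of 13868, or 216.325 CPM. Within 10% of the last share inside lay 135 KRT7-high cells and 180 other cells in library 1, and 167 KRT7-high cells and 219 other cells in library 2. The class is thus a range of a continuous measure cut at a fixed share of cells, and the values used to cut it cannot tell whether it is a separate type of cell.

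**Figure D1:**
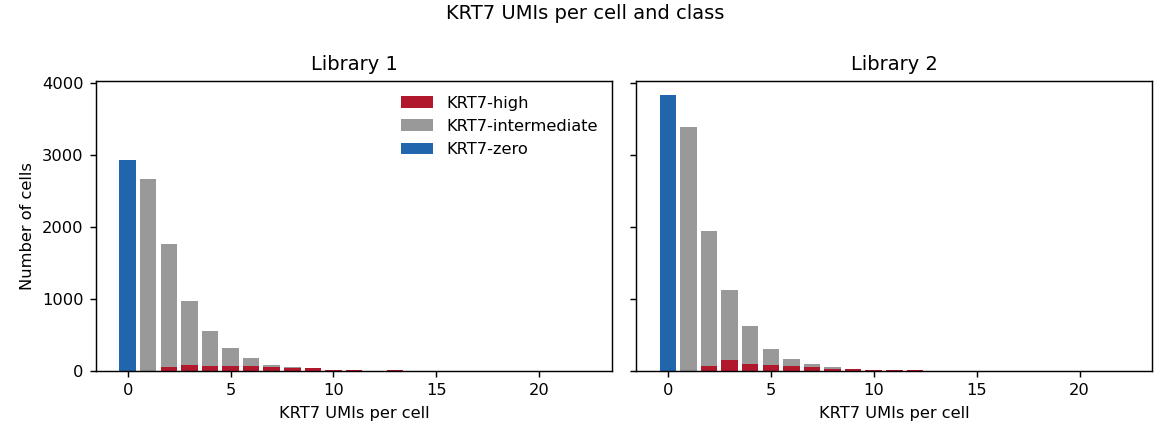
Number of cells (y axis) by KRT7 UMIs per cell (x axis) in each library, with KRT7-high, KRT7-intermediate and KRT7-zero cells stacked by colour. KRT7-high cells start at 2 UMIs and lie among KRT7-intermediate cells with as many UMIs, because the class is set by KRT7 over all UMIs and not by the count alone.

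The spread of KRT7 over cells was only slightly wider than that of other genes of the same abundance. With every cell reduced at random to 5000 UMIs, the variance of KRT7 counts was 1.13 times their mean in both libraries. The 983 and 1040 genes of like mean had median ratios of 1.06 and 1.05, and 67.9% and 78.8% of them lay below KRT7. KRT19 had ratios of 2.16 and 2.06 on the same scale, and ACTA2, the smooth-muscle actin of contractile fibroblasts, had 9.38 and 13.5. KRT7 thus varied much less from cell to cell, relative to its mean, than either of these genes.

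Cells rich in KRT7 in one draw of their molecules remained richer in the rest, by an amount well below the difference used to choose them. For this check, added after the data had been seen, cells with at least 10000 UMIs were grouped by KRT7 among 5000 drawn UMIs, and KRT7 was then measured in the UMIs not drawn. Cells with at least 3 drawn KRT7 UMIs had 152 CPM in library 1 (95% Poisson interval 135 to 170, 106 cells) and 139 CPM in library 2 (125 to 155, 122 cells). Cells with no drawn KRT7 UMI had 67.9 CPM (66.3 to 69.4, 5893 cells) and 64.9 CPM (63.6 to 66.3, 7318 cells). The intervals cover counting error only, and they do not overlap between these groups in either library.

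**Figure D2:**
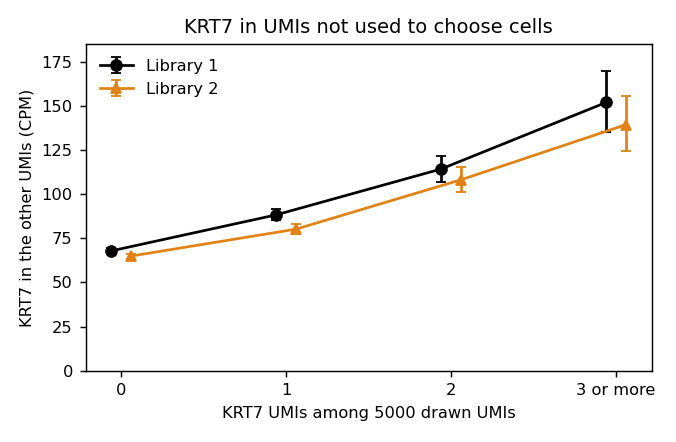
KRT7 level in the UMIs not used for choosing (y axis, CPM, 95% Poisson intervals) by the number of KRT7 UMIs among 5000 drawn per cell (x axis), for each library. The level was higher at each step, up to 152 CPM in library 1 and 139 CPM in library 2 at 3 or more drawn UMIs.

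KRT7 stood almost alone among the keratins. Of 36 keratin genes in the files, 3 reached 1 CPM over all cells, namely KRT7, KRT19 and KRT10, and 16 had no UMI in any class. KRT18 had no UMI in any class of either library. KRT8, the usual type II partner of KRT18, had 0 UMIs in the KRT7-high cells of both libraries, against 0 and 2 UMIs in the KRT7-zero cells. The counts of 0 allow a share of KRT7-high cells with a KRT8 UMI of up to 0.626% in library 1 and 0.517% in library 2. KRT10, a keratin of stratified epithelia, averaged 28.7 and 29.8 CPM in KRT7-high cells, against 32.3 and 28.1 CPM in KRT7-zero cells, so that the order of the classes differed between the libraries.

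On Sscrofa11.1 the KRT7 gene lies on chromosome 5 at positions 17553192 to 17570582, and KRT8 and KRT18 lie on the same chromosome at 18172423 to 18180277 and at 18217686 to 18221432. KRT19 lies on chromosome 12 at 21115453 to 21119115. RefSeq gives the row named KRT7 the class of a long non-coding RNA, and KRT8, KRT18 and KRT19 that of protein-coding genes. EIF4B, named for a translation initiation factor and on the same chromosome, is also classed as non-coding. Whether the class of the KRT7 row is correct could not be settled from these data. Counts of the KRT7 row are therefore RNA counts of that locus, and whether the cells made KRT7 protein was not measured.

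KRT19, which pairs with type II keratins in simple epithelia, was higher in KRT7-high than in KRT7-zero cells of both libraries, but the difference did not pass the test. It stood at 23.0 CPM in KRT7-high cells of library 1 (95% Poisson interval 20.0 to 26.4, 206 UMIs) and at 33.8 CPM in library 2 (30.3 to 37.5, 347 UMIs). KRT7-zero cells had 15.8 CPM (14.8 to 17.0, 793 UMIs) and 12.4 CPM (11.5 to 13.3, 791 UMIs), and KRT7-intermediate cells 14.4 and 11.7 CPM. The KRT7-high cells lay above the other classes in both libraries, and the intermediate cells lay below the KRT7-zero cells in both. The log2 fold change of KRT7-high over KRT7-zero cells was 1.06 (SE 0.31), 0.58 in library 1 and 1.44 in library 2, with an adjusted p of 0.424 in edgeR's quasi-likelihood test with Benjamini-Hochberg adjustment over all genes. With only the sums of both compared classes in the fit, the same log2 value of 1.06 passed edgeR's test with an adjusted p of 8.61e-31, and DESeq2 gave 1.05 with an adjusted p of 2.07e-06. The fold change was nearly the same in these fits, and over all alternatives the adjusted p ran between 3.17e-35 and 0.99997. With classes from thinned cells the log2 fold change was 0.61.

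A few cells carried much of the KRT19, in counts not reduced to equal depth. Cells with 5 or more KRT19 UMIs made up 3.76% of KRT7-high cells in library 1 (18 cells, 95% exact binomial interval 2.24 to 5.87%) and 3.97% in library 2 (23 cells, 2.53 to 5.89%). The same cells made up 1.85% (54 cells, 1.39 to 2.41%) and 1.07% (41 cells, 0.769 to 1.45%) of KRT7-zero cells. They held 63.1% and 76.7% of the KRT19 UMIs of the KRT7-high cells, against 56.4% and 47.3% of those of the KRT7-zero cells. Of all cells with that much KRT19, 18 of 207 in library 1 and 23 of 186 in library 2 were KRT7-high, or 8.70% and 12.4%, where the rule takes 5% of all cells. The 54 and 41 such cells without a KRT7 UMI were more in number, but came from the larger class of 2921 and 3831 cells, against 479 and 580. That order was thus nearly fixed by class size, and as shares of their class such cells were more frequent among KRT7-high cells.

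The share of cells with any KRT19 UMI was low in both classes. At 5000 UMIs per cell, 6.89% (4.79 to 9.54%) and 8.28% (6.16 to 10.8%) of KRT7-high cells had a KRT19 UMI, against 4.55% (3.83 to 5.37%) and 4.25% (3.64 to 4.94%) of KRT7-zero cells. Without equal depth the shares were 12.3% and 12.4%, against 8.80% and 7.78%. The exact binomial intervals overlapped in library 1 and not in library 2. No cell type known to lack KRT19 was identified here to give the share that free RNA alone would produce. KRT10 gave 13.2% and 14.1% of KRT7-high cells at the same depth, against 13.9% and 13.4% of KRT7-zero cells.

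**Figure D3:**
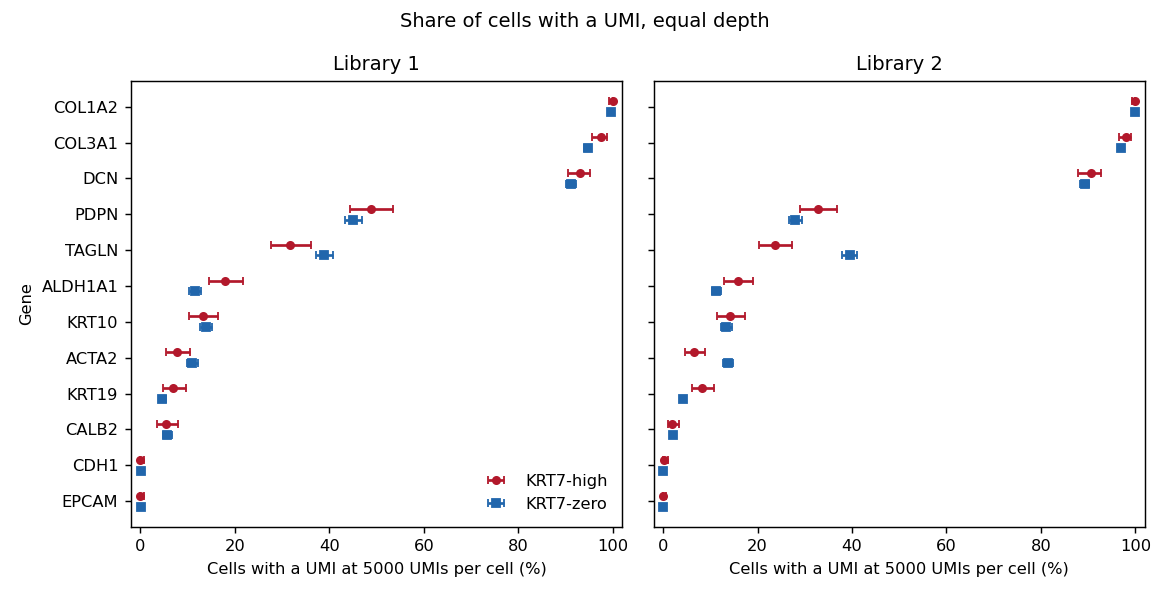
Share of cells with at least 1 UMI of each gene (x axis, percent, 95% exact binomial intervals) at 5000 UMIs per cell in KRT7-high and KRT7-zero cells of each library. COL1A2 and COL3A1 lie between 94.7% and 100% and DCN between 89.3% and 93.1% in both classes, EPCAM and CDH1 near 0%, and TAGLN and ACTA2 lie lower in KRT7-high cells.

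Stromal collagen genes stayed on in KRT7-high cells, at about the level of the KRT7-zero cells. COL1A2, a chain of type I collagen, averaged 2199 and 3118 CPM in KRT7-high cells, against 2156 and 3273 CPM in KRT7-zero cells. COL1A1, the other chain of type I collagen, averaged 1126 and 1380 CPM in KRT7-high cells, against 1168 and 1529 CPM in KRT7-zero cells. COL3A1, the chain of type III collagen, averaged 1096 and 1552 CPM in KRT7-high cells, against 1043 and 1640 CPM in KRT7-zero cells. The libraries differed from each other more than the classes did. The log2 fold changes were -0.00 (SE 0.03) for COL1A2, -0.08 (SE 0.03) for COL1A1 and 0.02 (SE 0.03) for COL3A1.

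The collagens were also present in nearly every single KRT7-high cell. At 5000 UMIs per cell, 479 of 479 and 580 of 580 KRT7-high cells had a COL1A2 UMI, against 99.7% and 99.9% of KRT7-zero cells. COL3A1 was found in 97.5% and 98.1% of KRT7-high cells, against 94.7% and 97.0% of KRT7-zero cells. COL1A1 was found in 98.3% and 97.9% of KRT7-high cells, against 97.5% and 98.5% of KRT7-zero cells. A median KRT7-high cell had 10 and 16 COL1A2 UMIs at this depth, as did a median KRT7-zero cell.

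Of the 8 fibrillar collagens tested, 0 were called in edgeR's quasi-likelihood test and 0 in DESeq2, with 2 at an unadjusted p under 0.05 in edgeR. Of the 17086 genes tested, 0.55% were called in either direction, that is, had an adjusted p below 0.05, a log2 fold change of at least 0.5 in size and the same sign in both libraries. The median log2 fold change of the fibrillar collagens was -0.03, with 0.03 in library 1 and -0.08 in library 2, beside -0.01 over all genes. COL5A2, a chain of type V collagen that regulates fibril width, averaged 359 and 637 CPM in KRT7-high cells, against 383 and 749 CPM in KRT7-zero cells. Its log2 fold change of -0.15 had an adjusted p of 0.0230 in edgeR and lay under the minimum size. COL5A1 averaged 181 and 134 CPM in KRT7-high cells, against 202 and 136 CPM in KRT7-zero cells. COL27A1 averaged 16.4 and 19.8 CPM in KRT7-high cells, against 15.3 and 21.1 CPM in KRT7-zero cells. COL5A3 averaged 8.37 and 2.92 CPM in KRT7-high cells, against 7.45 and 2.88 CPM in KRT7-zero cells. COL11A1 was rare, at 0.223 and 0.681 CPM in KRT7-high cells (2 and 7 UMIs), against 0.499 and 0.548 CPM in KRT7-zero cells (25 and 35 UMIs).

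Other stromal genes were likewise on in KRT7-high cells, and most epithelial genes were near 0. Of 9 stromal identity genes tested, 0 were called in edgeR, beside 0.55% of all genes, and 0 in DESeq2. An unadjusted p under 0.05 in edgeR was reached by 4 of the 9, and the median log2 fold change of the 9 was 0.03. THY1, a surface marker of ADSCs, averaged 412 and 353 CPM in KRT7-high cells, against 390 and 339 CPM in KRT7-zero cells. PDGFRA, a growth factor receptor of fibroblasts, averaged 129 and 169 CPM in KRT7-high cells, against 125 and 162 CPM in KRT7-zero cells. VIM, the mesenchymal filament vimentin, was found in every cell of both classes at 5000 UMIs, and DCN, the collagen-binding proteoglycan decorin, in 93.1% and 90.5% of KRT7-high cells, against 91.2% and 89.3% of KRT7-zero cells.

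The 14 epithelial identity genes in the files summed to 7.15 and 4.18 CPM in KRT7-high cells, against 6.37 and 3.44 CPM in KRT7-zero cells, and 1 of them reached 1 CPM. EPCAM, the epithelial adhesion molecule, had 0 UMIs in KRT7-high cells of both libraries, and CLDN3, ESRP1 and ELF3 were at 0 there too. CDH1, the epithelial cadherin, was found at equal depth in 0 of 479 and 1 of 580 KRT7-high cells, or 0% and 0.172%. In KRT7-zero cells it was found in 1 of 2921 and 2 of 3831, or 0.0342% and 0.0522%. Of the 7 epithelial genes tested, 0 were called in edgeR, beside 0.55% of all genes, and 0 in DESeq2. An unadjusted p under 0.05 in edgeR was reached by 2 of the 7. Log2 fold changes of the 7 ran between -7.12 and 1.33, with 4 above 0 and 3 below. The collagen and stromal genes named here were thus on in the class, as its label of stromal cells says. EPCAM, CLDN3, ESRP1, ELF3 and CDH1 were named because they lay at or near 0, and do not stand for the whole epithelial list. The sum of that list was slightly higher in KRT7-high than in KRT7-zero cells of both libraries.

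Mesothelial genes were also looked at, since mesothelium carries KRT7 and lines the chest. UPK3B and LRRN4 had 0 UMIs in KRT7-high cells of both libraries, and WT1 had a UMI in 0 and 1 of them at equal depth. The 7 mesothelial genes in the files summed to 161 and 90.5 CPM in KRT7-high cells, against 147 and 75.4 CPM in KRT7-zero cells. CALB2, the calcium-binding protein calretinin, was found at equal depth in 26 of 479 and 11 of 580 KRT7-high cells, or 5.43% (95% exact binomial interval 3.58 to 7.85%) and 1.90% (0.950 to 3.37%), against 5.68% (4.87 to 6.59%) and 2.01% (1.59 to 2.51%) of KRT7-zero cells. Most of the summed level was PDPN, podoplanin, which fibroblasts also make, at 149 and 85.2 CPM in KRT7-high cells, against 135 and 71.0 CPM in KRT7-zero cells. Of the 2 mesothelial genes tested, PDPN and CALB2, 0 were called in edgeR, beside 0.55% of all genes, and 0 in DESeq2. An unadjusted p under 0.05 in edgeR was reached by 1 of them. Their log2 fold changes were 0.22 and 0.14, above 0 in both libraries, and that of PDPN had an adjusted p of 0.000342 in edgeR and lay under the minimum size. The macrophage genes summed to 27.5 and 26.2 CPM in KRT7-high cells, against 28.7 and 22.2 CPM in KRT7-zero cells, and the lymphocyte genes to 2.57 and 1.56 CPM, against 3.80 and 1.69 CPM.

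Apart from KRT7 itself, the classes differed little. Among the 17086 genes tested, 40 were higher in KRT7-high than in KRT7-zero cells (0.234%) and 54 were lower (0.316%), at 2141 genes with an unadjusted p under 0.05 in edgeR. DESeq2 called 4 higher and 10 lower, and edgeR without the library term called 0 in either direction, with 344 genes at an unadjusted p under 0.05. Of 8189 genes with at least 10 CPM in either class, 3 differed by a log2 value of 1 or more. They were KRT19 (1.06), ACTA2 (-1.71) and ALDH1A3 (-1.001), and of these only ALDH1A3 was called. Of the called genes, 6 higher and 11 lower ones reached 10 CPM. Among the 34 higher genes under 10 CPM, 14 had over 25% of their UMIs in 1 cell, so those calls rest largely on single cells. Against all other cells, KRT7-zero and KRT7-intermediate together, 30 of 18101 genes were higher in KRT7-high cells (0.166%) and 27 lower (0.149%).

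The 6 higher genes at 10 CPM or more each differed by less than a log2 value of 1, and ALDH1A1 had the most molecules among them. ALDH1A1, an enzyme that makes retinoic acid from retinaldehyde, stood at 53.2 CPM (95% Poisson interval 48.5 to 58.1) and 46.4 CPM (42.3 to 50.8) in KRT7-high cells, against 35.6 CPM (33.9 to 37.3) and 33.2 CPM (31.8 to 34.7) in KRT7-zero cells. Its log2 fold change was 0.55 (SE 0.06, adjusted p 1.40e-13 in edgeR's quasi-likelihood test). At equal depth 18.0% and 15.9% of KRT7-high cells had an ALDH1A1 UMI, against 11.5% and 11.3% of KRT7-zero cells. KRT7-high cells were above KRT7-zero cells of both libraries in either measure. The log2 fold change of ALDH1A1 was under the minimum size at 0.41 against KRT7-zero cells matched on total UMIs. With classes from thinned cells it was 0.31, with an adjusted p of 0.608 in edgeR. It was also under that size among cells with at least 10000 UMIs (0.47) and with the top 10% (0.37). The same held against all other cells (0.48) and in non-cycling cells (0.42). ALDH1A1 was called with the top 2.5% (0.52) and in cycling cells (0.81).

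The other 5 of these genes had fewer UMIs, and with classes from thinned cells none of the 6 was called. CFD, complement factor D or adipsin, averaged 20.3 and 16.9 CPM in KRT7-high cells, against 14.3 and 11.4 CPM in KRT7-zero cells, a log2 fold change of 0.56 (SE 0.10). CLEC3B, the secreted plasminogen-binding protein tetranectin, averaged 21.3 and 12.0 CPM in KRT7-high cells, against 10.5 and 9.36 CPM in KRT7-zero cells, a log2 fold change of 0.74 (SE 0.11) that was 1.06 in library 1 and 0.35 in library 2. C4A, a complement component, averaged 9.94 and 12.4 CPM in KRT7-high cells, against 7.23 and 8.35 CPM in KRT7-zero cells. For SNCG, the gamma member of the synuclein family, the log2 fold change was 0.65 (SE 0.13), and for NTM, a cell adhesion protein of neurons, 0.51 (SE 0.12). NTM averaged 7.15 and 14.7 CPM in KRT7-high cells, against 6.77 and 8.86 CPM in KRT7-zero cells, a log2 difference of 0.12 in library 1 and 0.73 in library 2. With classes from thinned cells the log2 fold changes were 0.49 for CFD, 0.43 for SNCG, 0.40 for NTM, 0.30 for C4A and 0.27 for CLEC3B.

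Of the gene lists examined, that of the contractile apparatus held the most called lower genes. Of 16 contractile genes tested, 3 were lower in KRT7-high cells and 0 higher, beside 0.316% of all genes lower, and 14 had a lower level in both libraries. Their median log2 fold change was -0.28, with -0.19 in library 1 and -0.32 in library 2. It was -0.15 against KRT7-zero cells matched on total UMIs, -0.15 in cycling cells and -0.57 in non-cycling cells. TPM1, a tropomyosin that stabilises actin filaments, stood at 283 CPM (95% Poisson interval 272 to 294) and 315 CPM (304 to 326) in KRT7-high cells, against 395 CPM (389 to 400) and 530 CPM (524 to 535) in KRT7-zero cells. MYL9, a regulatory light chain of non-muscle and smooth-muscle myosin, stood at 55.5 CPM (50.7 to 60.6) and 49.7 CPM (45.5 to 54.2) in KRT7-high cells, against 78.2 CPM (75.8 to 80.7) and 91.1 CPM (88.8 to 93.5) in KRT7-zero cells. Both genes were lower in KRT7-high cells of both libraries, with log2 fold changes of -0.60 (SE 0.05) and -0.67 (SE 0.06) and adjusted p of 2.13e-08 and 2.42e-12 in edgeR. Against KRT7-zero cells matched on total UMIs, MYL9 was still called at -0.55 and TPM1 was not at -0.44. Neither was called with classes from thinned cells, at -0.47 for MYL9 and -0.42 for TPM1, or among cells with at least 10000 UMIs, at -0.68 and -0.63.

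ACTG2, the enteric smooth-muscle actin, was the rarest of the 3 called genes. It averaged 0.558 and 1.07 CPM in KRT7-high cells (5 and 11 UMIs), against 2.12 and 7.05 CPM in KRT7-zero cells (106 and 450 UMIs), a log2 fold change of -2.49 (SE 0.29). Among the remaining contractile genes, CALD1, the actin- and myosin-binding protein caldesmon, averaged 656 and 777 CPM in KRT7-high cells, against 746 and 959 CPM in KRT7-zero cells. MYLK, the kinase of the myosin light chain, averaged 22.0 and 39.9 CPM in KRT7-high cells, against 29.1 and 50.2 CPM in KRT7-zero cells. Their log2 fold changes of -0.22 and -0.34 had adjusted p of 5.66e-07 and 0.000215 in edgeR and lay under the minimum size.

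ACTA2 and TAGLN, the best known markers of contractile fibroblasts, were lower by more than the called genes TPM1 and MYL9 and still did not pass the test. Both were singled out after their values were seen. ACTA2 stood at 40.3 CPM (95% Poisson interval 36.3 to 44.7) and 33.1 CPM (29.7 to 36.8) in KRT7-high cells, 65.1 and 110 CPM in KRT7-intermediate cells, and 92.9 CPM (90.2 to 95.6) and 148 CPM (145 to 151) in KRT7-zero cells. TAGLN, the actin-binding protein transgelin, stood at 173 CPM (164 to 182) and 124 CPM (117 to 131) in KRT7-high cells, against 269 CPM (264 to 273) and 322 CPM (318 to 327) in KRT7-zero cells. In both libraries the levels ran in the order of the classes, lowest in KRT7-high cells. The log2 fold change of ACTA2 was -1.71 (SE 0.32, adjusted p 0.276 in edgeR), -1.16 in library 1 and -2.17 in library 2, and that of TAGLN -0.98 (SE 0.27, adjusted p 0.409). DESeq2 called ACTA2 with an adjusted p of 0.00617, and over all alternatives its adjusted p ran between 4.65e-168 and 0.99997.

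The share of cells with an ACTA2 UMI was also lower in KRT7-high cells, and the part of free RNA in these shares was not tested. At equal depth 7.72% (5.50 to 10.5%) and 6.55% (4.68 to 8.88%) of KRT7-high cells had an ACTA2 UMI, against 10.96% (9.84 to 12.1%) and 13.7% (12.6 to 14.8%) of KRT7-zero cells. For TAGLN the shares were 31.7% and 23.6% of KRT7-high cells, against 38.9% and 39.5% of KRT7-zero cells. For MYL9 they were 20.9% and 17.4% of KRT7-high cells, against 24.1% and 25.7% of KRT7-zero cells. The exact binomial intervals of ACTA2 overlapped in library 1 and did not in library 2.

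**Figure D4:**
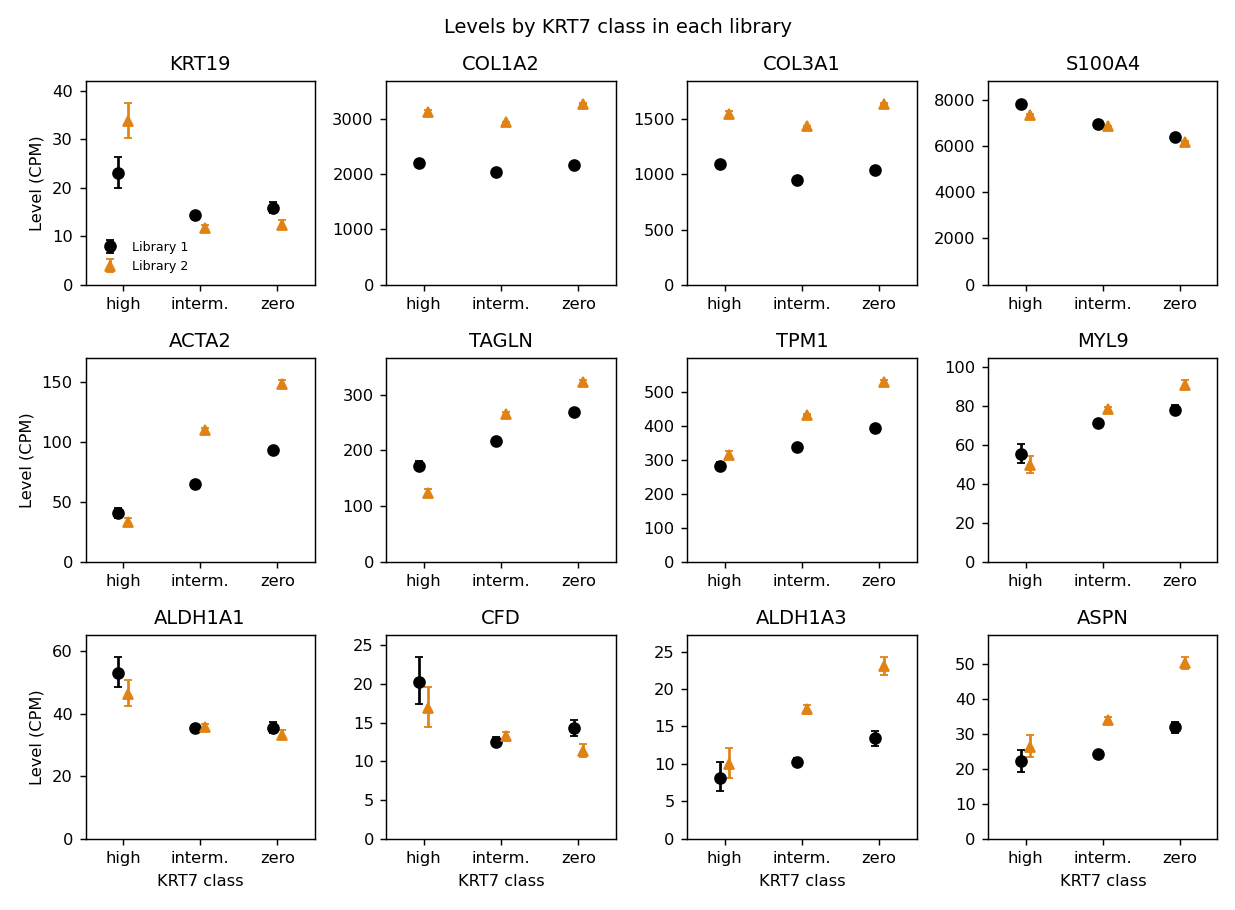
Level (y axis, CPM, 95% Poisson intervals) of 12 genes in the summed KRT7-high, KRT7-intermediate and KRT7-zero cells (x axis) of each library. COL1A2 and COL3A1 differ more between libraries than between classes, ACTA2, TAGLN, TPM1 and MYL9 are lowest in KRT7-high cells, and KRT19 and ALDH1A1 are highest there.

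Other called lower genes belonged to several functions. ALDH1A3, another retinaldehyde dehydrogenase, averaged 8.15 and 10.0 CPM in KRT7-high cells, against 13.4 and 23.1 CPM in KRT7-zero cells, a log2 fold change of -1.001 (SE 0.11) opposite in sign to that of ALDH1A1. ASPN, asporin, a small proteoglycan that binds collagen and TGF-beta, averaged 22.1 and 26.3 CPM in KRT7-high cells, against 31.9 and 50.2 CPM in KRT7-zero cells, a log2 fold change of -0.75 (SE 0.08). LOXL2, an enzyme that cross-links collagen, averaged 9.71 and 10.997 CPM in KRT7-high cells, against 12.3 and 21.8 CPM in KRT7-zero cells, a log2 fold change of -0.72 (SE 0.11). All 3 genes were lower in KRT7-high cells of both libraries, and by more in library 2 than in library 1. ALDH1A3 and ASPN were also called with KRT7-zero cells matched on total UMIs and with classes from thinned cells, and LOXL2 with neither, at -0.57 and -0.10. ALDH1A3 was not called among cells with at least 10000 UMIs, at -0.86, or in cycling cells, at -0.72. ASPN was not called against all other cells, at -0.43, or in cycling cells, at -0.38.

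LCN2, lipocalin 2, an iron-scavenging protein of inflammation, averaged 16.6 and 16.3 CPM in KRT7-high cells, against 20.5 and 29.2 CPM in KRT7-zero cells. LMO7, a protein that links actin to cell junctions, averaged 26.8 and 32.4 CPM in KRT7-high cells, against 36.1 and 51.1 CPM in KRT7-zero cells. PDE1A, an enzyme that breaks down cyclic nucleotides, averaged 16.6 and 25.4 CPM in KRT7-high cells, against 25.9 and 38.4 CPM in KRT7-zero cells. Their log2 fold changes lay between -0.61 and -0.54. The remaining named genes were GPC6, a heparan sulphate proteoglycan of the cell surface, at -0.62 (SE 0.11), the transcription factor SOX6 at -0.66 (SE 0.13), and COL4A3, a chain of basement membrane collagen, at -0.53 (SE 0.14). The intermediate cells lay between the other classes in both libraries for 11 of the 18 called named genes. Of these 18, DESeq2 also called 12 and gave no adjusted p for the other 6, and edgeR called 8 with KRT7-zero cells matched on total UMIs and 4 with classes from thinned cells.

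Around these single genes the wider pathways held small numbers of calls, beside 0.55% of all genes called in either direction and 0.316% called lower. In lists this short, a single call already lies above that share. Among 20 matrix glycoproteins and proteoglycans 1 was lower (ASPN), and among 11 cross-linking genes 1 (LOXL2), with 0 higher in both lists. Among 18 inflammatory genes CFD was higher and LCN2 lower, and among 10 genes of retinoid signalling ALDH1A1 was higher and 0 lower, on a list that does not hold the called lower gene ALDH1A3. Of 11 TGF-beta ligands and targets, 0 were called in edgeR and 0 in DESeq2, with 2 at an unadjusted p under 0.05 and a median log2 fold change of -0.11. Of 7 transcription factors of the epithelial-mesenchymal transition, 0 were called by either tool and 0 had an unadjusted p under 0.05. TWIST1, one of them, averaged 262 and 213 CPM in KRT7-high cells, against 256 and 215 CPM in KRT7-zero cells. Of 8 epithelial, AP-2 or KLF transcription factors tested, 0 were called by either tool and 0 had an unadjusted p under 0.05, and their median was 0.00.

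**Figure D5:**
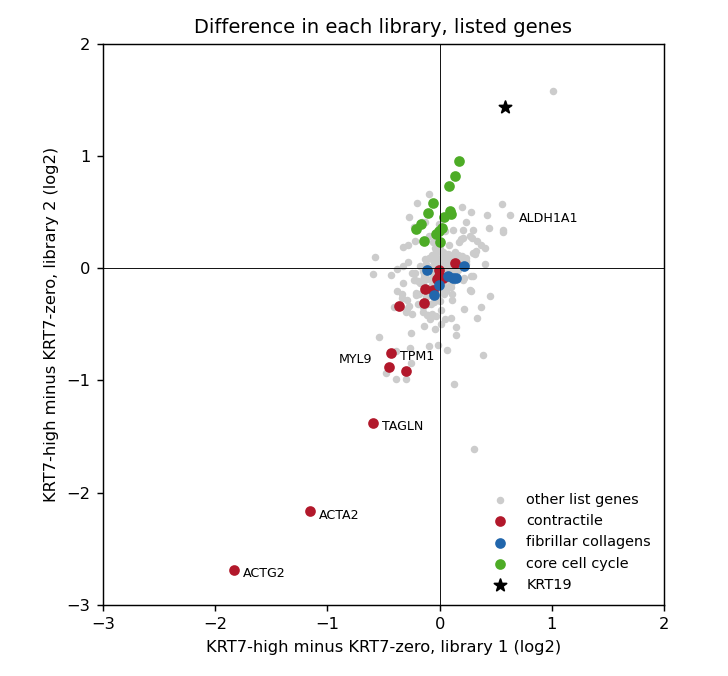
Log2 difference of KRT7-high minus KRT7-zero cells in library 1 (x axis) and library 2 (y axis) for the 321 listed genes that average 1 CPM or more, 1 point per gene. ACTG2, ACTA2, TAGLN, TPM1 and MYL9 lie low in both libraries, fibrillar collagens lie near 0, and core cell cycle genes lie above 0 in library 2 and around 0 in library 1.

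Core cell cycle genes had higher levels in KRT7-high cells of library 2 and like levels in library 1, with no gene called. The 15 core cycle genes had a median log2 fold change of 0.24, with 0.00 in library 1 and 0.45 in library 2, and 0 were called in edgeR and 0 in DESeq2, with 6 at an unadjusted p under 0.05. All 15 had a log2 fold change above 0, 8 of them in both libraries. At an adjusted p under 0.05 in edgeR, 2 were higher but did not meet the other rules for a call. The summed level of the 15 genes was 1065 and 1557 CPM in KRT7-high cells, against 1076 and 1075 CPM in KRT7-zero cells. Cycling cells, those with at least 3 of these genes at 5000 UMIs, made up 35.3% (95% exact binomial interval 31.0 to 39.7%) and 40.0% (36.0 to 44.1%) of KRT7-high cells, against 36.5% (34.7 to 38.2%) and 35.7% (34.1 to 37.2%) of KRT7-zero cells. The intervals overlap in both libraries, but they cover counting error only, and the difference in shares was not tested. The S phase genes, which act in DNA replication, had a median log2 fold change of -0.19, with -0.13 in library 1 and -0.20 in library 2, and 17 of 19 were below 0. Of these 19, 0 were called in edgeR and 0 in DESeq2, with 7 at an unadjusted p under 0.05 and 4 lower at an adjusted p under 0.05 but under the minimum size.

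MYL9, TPM1 and ACTA2 were lower in KRT7-high cells both among cycling and among non-cycling cells. MYL9 had a log2 fold change of -0.57 in cycling and -1.03 in non-cycling cells, and TPM1 of -0.45 and -0.96, TPM1 in cycling cells then lying under the minimum size. ACTA2 had -1.29 in cycling cells, where it passed edgeR's test with an adjusted p of 7.39e-09, and -1.89 in non-cycling cells, where it did not. KRT19 had 1.11 in cycling cells and 1.22 in non-cycling cells, where it passed with an adjusted p of 0.000161 in edgeR. In cycling cells 9 genes were higher and 10 lower (0.0607% and 0.0675% of genes tested), and in non-cycling cells 22 were higher and 31 lower (0.16% and 0.226%). Whether the differences depended on the cycle was not tested.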

How the data were processed

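The deposited files hold raw UMI counts, 1 whole number per gene and barcode. Per the file headers the authors ran Cell Ranger 7.0.0, on the genome build Sscrofa 11.1 per the submitters' processing notes. The libraries were made with Chromium 3' chemistry, per the labels' protocols. All 28155 gene rows matched the RefSeq table by symbol, and 10975 carry placeholder names.

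Barcodes with at least 5000 UMIs were classed by KRT7 over total UMIs. Counts were summed per library and class and tested with edgeR 4.0.16 in R 4.3.3 (quasi-likelihood, TMM, low-count filter), with all 3 classes and the library as a block in the fit, and p-values were adjusted over all genes tested. KRT7 was left out of counts of calls. The block was used because both classes come from the same library. These p-values rest on a spread pooled over genes, since 2 libraries give little of their own. CPM is a gene's summed UMIs per 1000000 UMIs of its class, with exact Poisson intervals. Shares of cells use counts thinned to 5000 UMIs. Intervals cover counting error only, and whether they overlap is not a test between classes.

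Scrublet called 0.0% of cells, below the 0.5% taken as working. KRT7-high, its lists and its tests were chosen with earlier results of these data known. Genes were named if called with a mean of at least 10 CPM in the class where they were higher (up to 14 each way, without placeholder names), as the up to 4 most changed called genes of each of 38 lists, as fibrillar collagens or simple keratins, or as markers. ACTA2, TAGLN and other uncalled genes named with values were chosen after these were seen. The code was checked on simulated counts. The deposited counts carry depth, so the smallest classes limit the precision.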

Additional observations from a re-analysis of the deposited data

Results flagged for a closer look

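Barcodes with under 5000 UMIs entered no comparison and still held KRT7, at 68.4 CPM in library 1 (95% Poisson interval 61.0 to 76.5, 2670 barcodes) and 55.7 CPM in library 2 (45.9 to 66.8, 1358 barcodes), above the limits of 0.662 and 1.45 CPM that a count of 0 allows. The deeper cells held 76.3 and 71.6 CPM. Whether these barcodes are cells or free RNA was not tested.

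For 3 fibrillar collagens the difference of KRT7-high minus KRT7-zero cells had the same sign in both libraries among cycling cells and the opposite sign in both among non-cycling cells. COL1A1 had a log2 difference of 0.0563 in cycling and -0.223 in non-cycling cells. COL1A2 had 0.103 in cycling and -0.0831 in non-cycling cells, and COL3A1 had 0.143 in cycling and -0.0882 in non-cycling cells. The difference between cycling and non-cycling cells was not tested.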

How the results depend on the processing

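The number of called genes depended on the processing more than their direction did. The 40 higher and 54 lower genes became 0 and 0 without the library block (344 genes at an unadjusted p under 0.05), 4 and 10 with DESeq2, 11 and 12 with classes from thinned cells, 15 and 21 with KRT7-zero cells matched on depth, 22 and 31 in non-cycling cells and 9 and 10 in cycling cells. With the top 10% of cells 25 genes were higher, and 23 were lower at 10000 UMIs or more and 27 against all other cells. These totals are not all drawn from the 94 genes of the main fit. Of the 94, 12 were still called with DESeq2 and 0 without the block. Of those tested, 7 of 91 were still called with thinned classes and 17 of 76 with depth-matched cells. In non-cycling cells 15 of 77 were still called, and in cycling cells 5 of 89. All 94 had the same sign without the block and with DESeq2, but both refit the same sums, so this was nearly fixed in advance. The sign was the same for 89 of 91 with thinned classes, 72 of 77 in non-cycling and 85 of 89 in cycling cells. KRT19 passed with only both compared classes in the fit (1.06), DESeq2 (1.05), the top 10% (0.81), all other cells (1.10) and non-cycling cells (1.22), and ran between 0.58 and 1.44 with 1 library left out. The fibrillar collagen median was 0.0452 in cycling cells, and 0.03 and -0.08 with 1 library left out. The lower contractile calls ran between 0 without the block and 5. Counts of calls have no value with 1 library left out, since no residual degrees of freedom remain. The causes were not tested. At this depth, genes under 10 CPM rest on few molecules in the KRT7-high cells.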

Other observations

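S100A4, a calcium-binding protein of fibroblasts, averaged 7823 and 7340 CPM in KRT7-high cells, 6978 and 6862 CPM in KRT7-intermediate cells and 6388 and 6193 CPM in KRT7-zero cells, in the order of the classes in both libraries. Its log2 fold change of 0.29 (SE 0.03) had an adjusted p of 1.69e-14 in edgeR's quasi-likelihood test and lay under the minimum size for a call.

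Some collagens outside the fibrillar group were higher and others lower in KRT7-high cells, and COL4A3 was called lower. COL14A1, which binds to collagen fibrils, averaged 299 and 545 CPM in KRT7-high cells, against 266 and 429 CPM in KRT7-zero cells. COL4A1 and COL4A2, the common chains of basement membrane collagen, averaged 45.3 and 36.3 CPM and 28.0 and 37.8 CPM in KRT7-high cells, against 56.0 and 54.2 CPM and 34.4 and 50.1 CPM in KRT7-zero cells. On a list of 11 such genes that does not hold COL4A3, 0 were called in edgeR and 0 in DESeq2, with 7 at an unadjusted p under 0.05. PECAM1, an adhesion protein of endothelium, averaged 15.5 and 18.1 CPM in KRT7-high cells, against 10.8 and 14.3 CPM in KRT7-zero cells, while CDH5 and KDR, which define endothelium, had 0 UMIs in KRT7-high cells. The 7 endothelial genes in the files summed to 61.5 and 101 CPM in KRT7-high cells, against 60.3 and 84.9 CPM in KRT7-zero cells. Of these 7, 2 reached 1 CPM over all cells. The single genes named under this heading were singled out after their values were seen.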
